A study of Mus musculus with 6 samples.

Results

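The nuclear genes for the subunits of the oxidative phosphorylation complexes were compared between irradiated mouse thalamus given NeuroD1 (ND1) virus and irradiated thalamus given control virus. Genes were taken by symbol, as the Nduf subunit genes of complex I, Sdha to Sdhd, the Uqcr genes, the Cox4 to Cox8 genes and the Atp5 genes. A summed count of at least 10 over the 6 mice was also required. Of the 21899 genes in the table, 87 symbols matched and 83 genes met the count minimum. The other 4 entries were Cox7b2 with 7 counts in all, the pseudogene Cox5b-ps with 5, Cox8c with 0 and a second Atp5o entry with 0. Bulk RNA-seq was performed on 3 mice per group, and 82 of the 83 genes passed the filter on low counts and were tested among 14956 genes.

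All 6 mice were wild-type male C57BL/6J mice, 8 to 10 weeks old when obtained, and all had received a single dose of 50 Gy to the left thalamic region. At 2 weeks after irradiation, 2 µL of virus at 5.0E+11 GC/mL was injected into the thalamus. The RC group received AAV9 GFAP104::tdTomato, which carries a red fluorescent protein under a promoter active in astrocytes. The RN group received AAV9 GFAP104::mND1-tdTomato, which adds the neuronal transcription factor NeuroD1. Whole tissue lying under the hippocampus was taken 6 weeks after irradiation, so radiation and a viral injection are common to both groups and every cell type of the tissue is mixed in each library. The methods of the study do not say from which side the tissue was taken, and unirradiated mice were not analysed here.

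Oxidative phosphorylation is the set of reactions by which mitochondria turn the energy of NADH and succinate into ATP. Complex I takes electrons from NADH and complex II from succinate, complex III passes them to cytochrome c, complex IV hands them to oxygen, and complex V makes ATP from the proton gradient that complexes I, III and IV build. Most subunits are encoded in the nucleus and imported, while a small core set is encoded by the mitochondrial genome, and complex II is wholly nuclear. Neurons rely strongly on this pathway, whereas astrocytes carry out much glycolysis.

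The ND1 virus was visible in the libraries. Neurod1 counts were 84, 91 and 90 for RC replicates 1, 2 and 3, against 1123, 1711 and 910 for RN replicates 1, 2 and 3. It rose by 3.77 ± 0.23 (SE) on the log2 scale, with a Benjamini-Hochberg adjusted p of 0.00178 from edgeR's quasi-likelihood test. The libraries held between 16561663 and 18657015 counts. Markers of thalamic neurons, of astrocytes and of other cell types of the region were detected, but 12 choroid plexus markers summed to between 330.2 and 8440 CPM (read counts scaled to the same normalized library size) in RC and to between 76.2 and 153 in RN. RC replicate 1 lay below the other RC mice in most oxidative phosphorylation genes and in several other gene groups, and results that rest on it are given with and without it.

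The promoters of these genes are known for binding sites of the transcription factors GABP (an ETS factor), NRF1 and YY1, while NeuroD1 and related factors bind E-boxes. RefSeq promoters on GRCm38.p6, taken as 250 bases before to 50 bases after the start, were found for 69 of the 83 genes, with 74 promoters in all. Both strands were searched for the ETS core CCGGAAG, the NRF1 site, the YY1 core AAGATGGC and the E-box CAGNTG; the ends of the ETS and YY1 letters can overlap. The NRF1 site was in 18 of the 74 promoters (24.3%), against 4.6% of all 32851 promoters. The ETS core was in 17 (23%), against 8.86% of all promoters. The YY1 core was in 10 (13.5%), against 2.75%, and the E-box in 30 (40.5%), against 51.4%. The first 3 motifs were thus more frequent, and the E-box less frequent, among these promoters than among promoters at large, which describes letters only and says nothing of whether a factor was bound. Promoters are shown for the genes with the smallest unadjusted p-values or with groups that did not overlap, where the table had one, with matched letters in capitals. They lie at chr11:4704295-4704594 on the minus strand (Uqcr10), chr19:7217567-7217866 on the minus strand (Cox8a), chr7:4753045-4753344 on the minus strand (Cox6b2), chr7:30183921-30184220 on the plus strand (Cox7a1) and chr16:91931581-91931880 on the minus strand (Atp5o), each written 5′ to 3′ along its gene.
Uqcr10: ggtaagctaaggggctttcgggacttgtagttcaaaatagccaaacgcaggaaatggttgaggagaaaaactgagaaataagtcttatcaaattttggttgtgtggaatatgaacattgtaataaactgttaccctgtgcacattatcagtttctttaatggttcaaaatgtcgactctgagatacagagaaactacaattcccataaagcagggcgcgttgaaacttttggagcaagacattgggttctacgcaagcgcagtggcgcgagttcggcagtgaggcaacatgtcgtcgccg
Cox8a: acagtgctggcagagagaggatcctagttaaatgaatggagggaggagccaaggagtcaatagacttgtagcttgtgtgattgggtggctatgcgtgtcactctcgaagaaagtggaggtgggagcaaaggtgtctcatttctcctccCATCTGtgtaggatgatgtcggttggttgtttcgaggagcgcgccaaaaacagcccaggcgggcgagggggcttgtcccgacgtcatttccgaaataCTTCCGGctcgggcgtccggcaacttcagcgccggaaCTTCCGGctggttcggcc
Cox6b2: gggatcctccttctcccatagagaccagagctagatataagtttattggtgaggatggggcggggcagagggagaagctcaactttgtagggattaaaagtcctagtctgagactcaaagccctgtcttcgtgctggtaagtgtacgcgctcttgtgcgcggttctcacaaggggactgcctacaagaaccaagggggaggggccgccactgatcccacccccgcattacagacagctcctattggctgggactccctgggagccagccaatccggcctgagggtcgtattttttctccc
Cox7a1: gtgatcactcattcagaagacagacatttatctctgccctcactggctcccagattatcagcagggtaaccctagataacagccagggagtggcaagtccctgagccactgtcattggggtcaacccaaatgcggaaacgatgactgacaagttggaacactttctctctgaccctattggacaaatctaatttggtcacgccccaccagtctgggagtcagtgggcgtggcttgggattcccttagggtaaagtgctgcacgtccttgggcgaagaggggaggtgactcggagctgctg
Atp5o: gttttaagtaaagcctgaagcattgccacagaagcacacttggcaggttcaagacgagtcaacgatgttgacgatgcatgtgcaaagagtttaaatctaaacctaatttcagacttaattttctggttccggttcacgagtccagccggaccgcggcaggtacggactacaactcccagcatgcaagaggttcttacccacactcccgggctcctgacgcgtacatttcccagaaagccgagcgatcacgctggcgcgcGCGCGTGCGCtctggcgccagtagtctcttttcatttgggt
The capitals mark 2 ETS cores and 1 E-box in the Cox8a promoter and 1 NRF1 site in the Atp5o promoter, all of them on the opposite strand. None of the 4 motifs was found in the Uqcr10, Cox6b2 or Cox7a1 window.

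Most of the genes had a slightly lower fitted level in RN than in RC, but none passed the adjusted threshold. Of the 82 tested genes, 76 had a log2 fold change below 0 and 6 above it, against 49.2% of all tested genes below 0. The median log2 fold change was -0.12, against 0.00 over all tested genes, and 78 of the 82 lay within 0.3 of 0. The SE of a single gene had a median of 0.11, and 38 of the 82 fold changes were smaller than their own SE. At an adjusted p under 0.05 in edgeR's quasi-likelihood test, 0 of the 82 were called, against 0.0735% of all tested genes. DESeq2's Wald test called 1 of them, Cox6a2, lower in RN, against 1.7% of all tested genes called lower at that adjusted p. In edgeR, 0.0602% of all tested genes also met a fold of at least 2 in the higher direction and 0.0134% in the lower. Of the members, 5 had an unadjusted p under 0.05, all lower in RN (Cox6a2, Uqcr10, Cox8a, Cox6b2 and Sdhc), a share close to the 6.33% of all tested genes that were lower at that p. In the other direction 0 members were found, against 5.44%.

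**Figure D1:**
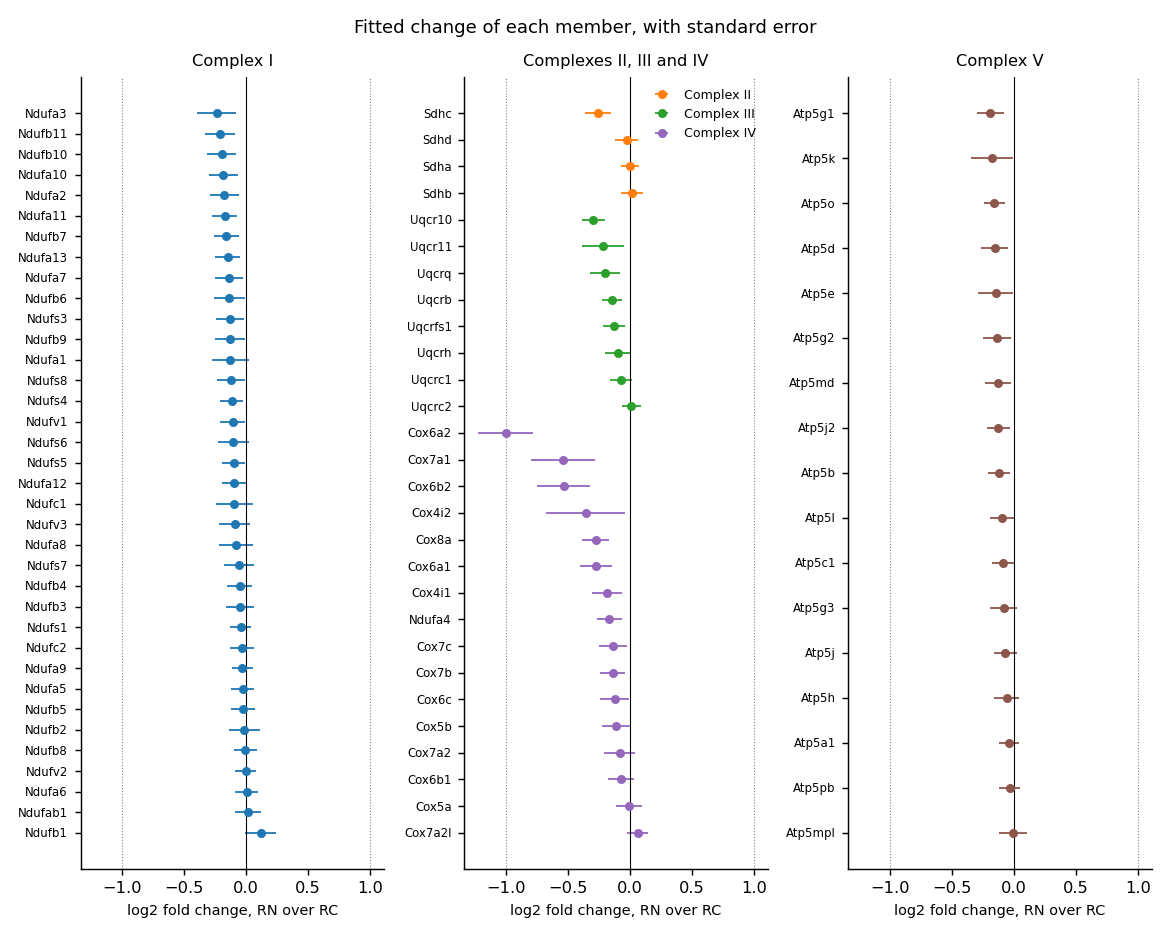
Log2 fold change of RN over RC (points, horizontal axis) with its standard error (bars) for 81 of the 82 tested subunit genes, by respiratory complex; dotted lines mark a fold of 2 in either direction. Most points lie just left of 0 with bars that reach or nearly reach it, and Cox6a2, at -1.01, lies farthest to the left.

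Complex by complex, 34 of 37 complex I genes, 3 of 4 complex II genes, 7 of 8 complex III genes, 15 of 16 complex IV genes and 17 of 17 complex V genes were below 0. The median log2 fold changes were -0.10 in complex I, -0.01 in complex II, -0.14 in complex III, -0.15 in complex IV and -0.12 in complex V. Here Ndufa4 was counted in complex IV, where its protein is now placed. Complexes III to V lay close together, complex II nearest to 0, and differences between complexes were not tested. In bulk tissue, fewer cells rich in these transcripts and less RNA per cell cannot be told apart.

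The spread among RC mice was larger than the distance between the groups. The 83 genes summed to 10841, 12858 and 12948 CPM in RC replicates 1, 2 and 3 (12216 ± 1191, SD, n = 3). In RN they summed to 11356, 11471 and 11319 CPM (11382 ± 79.1, SD, n = 3). RC replicate 1 thus lay below every RN mouse while RC replicates 2 and 3 lay above them, and the difference between the group means was smaller than the SD of the RC group. Gene by gene the same split was seen, since the lowest of the 6 mice was RC replicate 1 for 50 of the 82 genes, an RN mouse for the others, and RC replicate 2 or 3 for 0. The highest mouse was RC replicate 3 for 44 genes and RC replicate 2 for 33. Over all tested genes, RC replicate 1 was the lowest mouse for 16.9%.

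**Figure D2:**
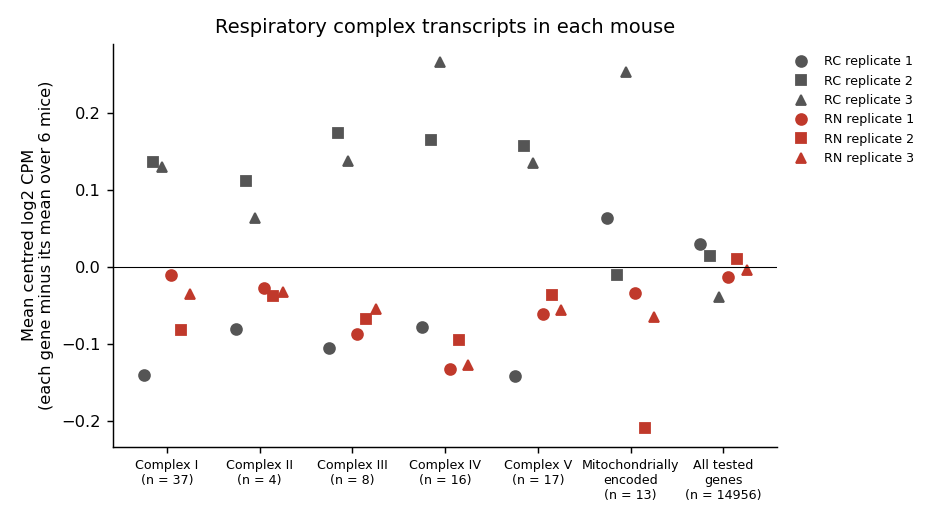
Mean log2 CPM of the tested genes of each complex in each mouse, after subtracting each gene's mean over the 6 mice (vertical axis; grey RC, red RN, one marker shape per replicate number). In complexes I to V, RC replicates 2 and 3 lie above 0 and RC replicate 1 lies below 0, under the RN mice in all but complex IV, whereas for the mitochondrially encoded genes RC replicate 1 lies at 0.06.

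Leaving out each mouse in turn moved the median of the tested subunit genes between -0.20 and -0.06, and between 61 and 79 genes were below 0. These fits held 82 or 83 genes, since Cox8b passed the filter without RC replicate 3 and without any one RN mouse. The lowest median was that without RC replicate 1, when 79 of the 82 genes were below 0 (49.3% of all genes then tested) and 35 genes had an unadjusted p under 0.05, all lower in RN (6.81% of all genes tested without that mouse), and 0 passed the adjusted threshold in edgeR's quasi-likelihood test. Without any one of the other mice, between 2 and 3 genes had an unadjusted p under 0.05. All 3 RN values lay below all 3 RC values for 7 of the 82 genes (Cox6a2, Cox6b2, Cox7a1, Uqcr10, Uqcrb, Sdhc and Atp5o), near the 8.12% of all tested genes, and the opposite was seen for 0, against 8.18%. Without RC replicate 1, a choice made after its values were seen, all 3 RN values lay below both remaining RC values for 64 of the 82 genes (78%), against 15.6% of all tested genes. By complex these were 26 of 37 genes in complex I, 2 of 4 in II and 7 of 8 in III. They were 14 of 16 in IV and 15 of 17 in V. RC replicate 1 was the lowest of all mice for 50 of the 82 genes. Leaving it out therefore lowers the median and raises the counts of 79, 35 and 64 genes by selection. These counts and the split by complex are no separate sign of a group difference. The count of genes without overlap was not made without RC replicate 2 or 3, when the subunit genes had medians of -0.07 and -0.06.

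Complex I oxidizes NADH, and its 7 nuclear core subunits, which carry the flavin and the iron-sulfur clusters, had a median log2 fold change of -0.06 with all 7 below 0. Ndufv1, which binds NADH and the flavin, had 143, 176 and 159.6 CPM in RC and 154, 152 and 137 in RN. Ndufs1, an iron-sulfur subunit of the electron input module, had 154, 151 and 164 CPM in RC and 161, 152 and 141 in RN. The groups overlapped for both genes, with log2 fold changes of -0.11 ± 0.10 and -0.05 ± 0.09 (SE). Ndufs1 was at 0.0034 without RN replicate 3.

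The 30 accessory subunits of complex I, which surround the core and are needed for its assembly and stability, had a median of -0.10 with 27 below 0. The smallest unadjusted p-values of the complex belonged to Ndufb11, Ndufa11 and Ndufb10. Ndufb11 had 75.8, 96.3 and 102 CPM in RC and 74.8, 81.8 and 79.7 in RN. Its fitted difference on the log2 scale was -0.21 ± 0.12 (SE), with an adjusted p of 0.564 in edgeR's quasi-likelihood test. Ndufa11 had 76.4, 95.9 and 82.8 CPM in RC and 75.1, 76.6 and 74.3 in RN (-0.18 ± 0.10). Ndufb10 had 86.9, 111 and 114.5 CPM in RC and 89.6, 87.2 and 95.9 in RN (-0.20 ± 0.12). In each of the 3, RC replicate 1 lay within or next to the RN values and RC replicates 2 and 3 lay above all of them. The 3 complex I genes above 0 were Ndufb1 at 0.12 ± 0.13, Ndufab1, the mitochondrial acyl carrier protein, at 0.01 ± 0.11, and Ndufa6 at 0.01 ± 0.09; they were named after their values were seen. Ndufab1 and Ndufa6 turned to -0.09 and -0.06 without RC replicate 1.

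Complex II, succinate dehydrogenase, is shared with the TCA cycle. Its flavoprotein Sdha had nearly the same level in every mouse, with 504, 496 and 495 CPM in RC and 504, 488 and 503 in RN, and its fitted log2 difference was -0.0007 ± 0.07 (SE). Its sign turned under other scalings, at 0.0012 with DESeq2's size factors. The iron-sulfur subunit Sdhb had 116, 129.7 and 136 CPM in RC and 132, 125 and 129.6 in RN (0.02 ± 0.09). For neither catalytic subunit did the groups separate.

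The membrane anchors differed from each other in their values. Sdhc had 124, 161 and 137 CPM in RC and 117, 121 and 114 in RN, so the groups did not overlap, although RC replicate 1 was within 4 CPM of RN replicate 2. Its log2 fold change was -0.26 ± 0.11 (SE), with an adjusted p of 0.384 in edgeR's quasi-likelihood test. The other anchor, Sdhd, had 84.1, 100.5 and 98.9 CPM in RC and 91.3, 93.6 and 93.6 in RN, at -0.03 ± 0.09, and the RC values lay on both sides of the RN values.

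Complex III passes electrons from ubiquinol to cytochrome c. Uqcr10, one of its small supernumerary subunits, had 56.1, 66.9 and 61.5 CPM in RC and 50.5, 50.7 and 48.8 in RN, with no overlap between the groups. The log2 fold change was -0.30 ± 0.09 (SE) and the adjusted p 0.234 in edgeR's quasi-likelihood test. Leaving out each mouse in turn kept it between -0.36 and -0.23. Uqcrb, another supernumerary subunit, had 77.0, 77.9 and 82.0 CPM in RC and 69.7, 69.9 and 74.4 in RN, again without overlap, at -0.15 ± 0.08. For both genes RC replicate 1 lay above the RN mice, unlike its place in most of the others.

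In other complex III genes RC replicate 1 lay lower. Uqcrq had 80.4, 107 and 107 CPM in RC and 82.6, 84.4 and 88.9 in RN (-0.20 ± 0.12, SE). Uqcrfs1, the Rieske iron-sulfur protein that carries out electron transfer, had 121, 141 and 137 CPM in RC and 120.2, 124 and 119.8 in RN (-0.13 ± 0.09). Uqcrc1, a core protein, had 237, 283 and 271 CPM in RC and 251, 254 and 245 in RN (-0.08 ± 0.09). In all 3 the groups overlapped through RC replicate 1. Uqcrc2, the other core protein, was the one complex III gene above 0, at 0.01 ± 0.08. RN replicate 2 was its highest mouse, and it turned to -0.03 without that mouse.

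Complex IV, cytochrome c oxidase, has 3 catalytic subunits encoded by the mitochondrial genome, and the nuclear genes give its supernumerary subunits, several of which exist as tissue-specific isoforms. The 11 common subunits were all below 0, with a median log2 fold change of -0.14. Cox8a had 285, 361 and 370 CPM in RC and 268, 281 and 288 in RN, at -0.28 ± 0.11 (SE) with an adjusted p of 0.371 in edgeR's quasi-likelihood test. RC replicate 1 lay between RN replicates 2 and 3, and the other RC mice lay well above. Cox4i1, needed early in assembly, had 403, 524 and 531 CPM in RC and 417, 407 and 458 in RN (-0.19 ± 0.12). Cox5a had 91.0, 106 and 116 CPM in RC and 110.3, 101 and 101 in RN (-0.01 ± 0.11). Ndufa4 had 164, 195 and 205 CPM in RC and 168, 169 and 164 in RN (-0.17 ± 0.10). The groups overlapped for each of these 4 genes, through RC replicate 1 and, for Cox5a, also RC replicate 2.

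Cox7a2l, which joins complexes III and IV into supercomplexes, was the only complex IV gene above 0, with 162, 182 and 177 CPM in RC and 173, 177 and 193 in RN (0.06 ± 0.09). It also stayed above 0 without each mouse, between 0.01 and 0.10.

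The alternative isoforms of complex IV, of which 4 could be tested, had the lowest fitted values, with a median of -0.54. Cox6a2, the heart and skeletal muscle form of subunit 6a, stood at 14.6, 11.4 and 17.6 CPM in the RC mice (14.6 ± 3.12, SD, n = 3) and at 7.55, 8.61 and 5.59 CPM in the RN mice (7.25 ± 1.53, SD, n = 3). The underlying read counts of RC were 261, 191 and 308, and those of RN 127, 161 and 100. Every RN mouse lay below every RC mouse, by a log2 fold change of -1.01 ± 0.22 (SE). The adjusted p was 0.131 in edgeR's quasi-likelihood test and 0.00428 in DESeq2's Wald test, so this gene alone among the members was called by the second tool, which called 1.7% of all tested genes lower in RN at an adjusted p under 0.05. Without each mouse in turn the log2 fold change lay between -1.16 and -0.84. The summed level of 12 striated muscle genes, of which 9 were tested, ranged from 9.28 to 33.6 CPM in RC. In RN it ranged from 22.8 to 29.2 CPM. RC replicate 3, with the most Cox6a2, had the least of them. Thalamic neuron markers summed to 1069, 815 and 1721 CPM in RC and to 1124, 926 and 569 in RN. Like Cox6a2 they were highest in RC replicate 3 and lowest in RN replicate 3. Unlike Cox6a2 they were higher in RN replicate 1 than in RC replicate 1. The part of muscle or of thalamic neurons in the Cox6a2 counts was not tested.

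Cox6b2, the testis form of subunit 6b, had 7.35, 9.86 and 7.22 CPM in RC and 4.64, 6.74 and 5.42 in RN, at -0.54 ± 0.21 (SE) with an adjusted p of 0.377 in edgeR's quasi-likelihood test. Cox7a1, the heart and muscle form of subunit 7a, had 2.52, 2.63 and 2.46 CPM in RC and 1.78, 1.82 and 1.62 in RN. The groups did not overlap for either gene. Cox7a1 was at -0.54 ± 0.26 with an adjusted p of 0.473, and its 3 RC values were close together, RC replicate 1 included. Cox4i2, the form of lung and of cells that sense oxygen, had 1.68, 2.27 and 3.27 CPM in RC and 1.96, 1.87 and 1.79 in RN, and the groups overlapped (-0.36 ± 0.32).

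Cox8b, the heart and muscle form of subunit 8, was the one gene removed by the filter, with RC counts of 19, 39 and 5 and RN counts of 7, 6 and 9. Its highest level was in RC replicate 2 and its next in RC replicate 1, while RC replicate 3 was below every RN mouse. The choroid plexus markers took the same order in RC, with mean centred log2 CPM of 1.71, 3.01 and -0.65, and so did the striated muscle genes, with 0.29, 0.70 and -1.35. The part of either in the Cox8b counts was not tested.

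**Figure D3:**
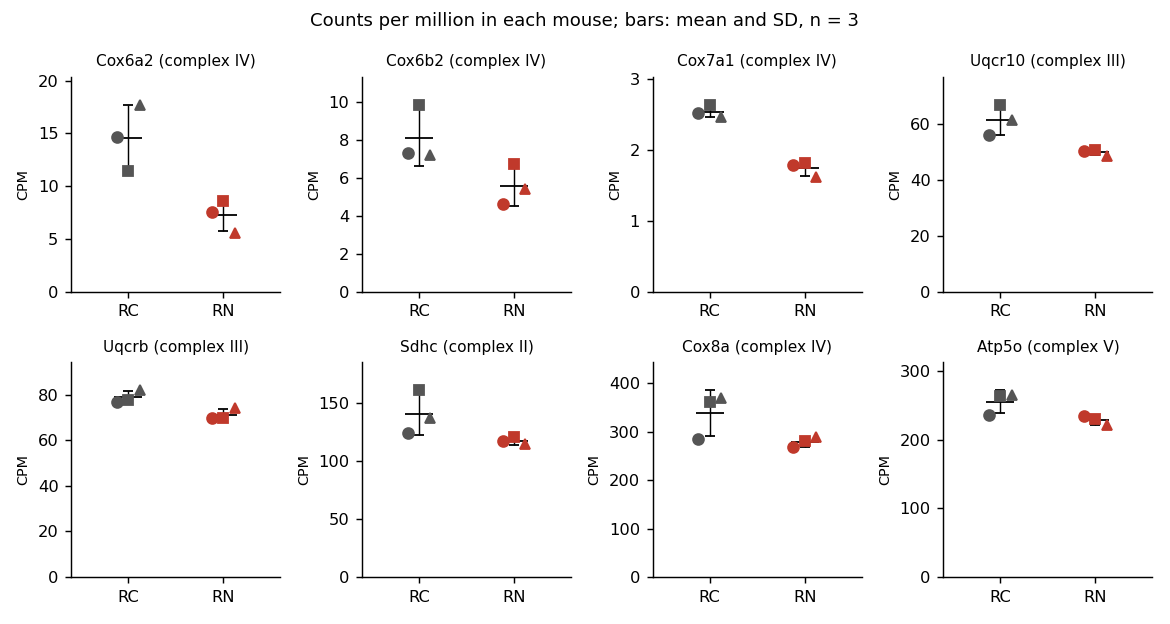
CPM of 8 subunit genes in each mouse (grey RC, red RN; circle, square and triangle for replicates 1, 2 and 3), with the mean and SD of 3 mice per group in black; each vertical axis starts at 0. Cox6a2 has the widest relative gap, 14.6 against 7.25 CPM, and Cox8a is the one panel in which the groups overlap.

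Set against its common partner per transcript length, each alternative isoform was a minor form in these tissues. Cox6a2 made up 6.08%, 3.65% and 5.15% of Cox6a1 and Cox6a2 together in RC and 3.17%, 3.46% and 2.34% in RN, with no overlap between the groups. Cox7a1 made up 4.70%, 4.04% and 3.27% of the Cox7a pair in RC and 3.01%, 3.01% and 2.64% in RN, also without overlap. For Cox6b2 the shares lay between 5.90% and 8.48% in RC and between 4.51% and 6.17% in RN, and these ranges overlapped. The shares of Cox4i2 and Cox8b were under 1% in every mouse and overlapped as well.

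**Figure D4:**
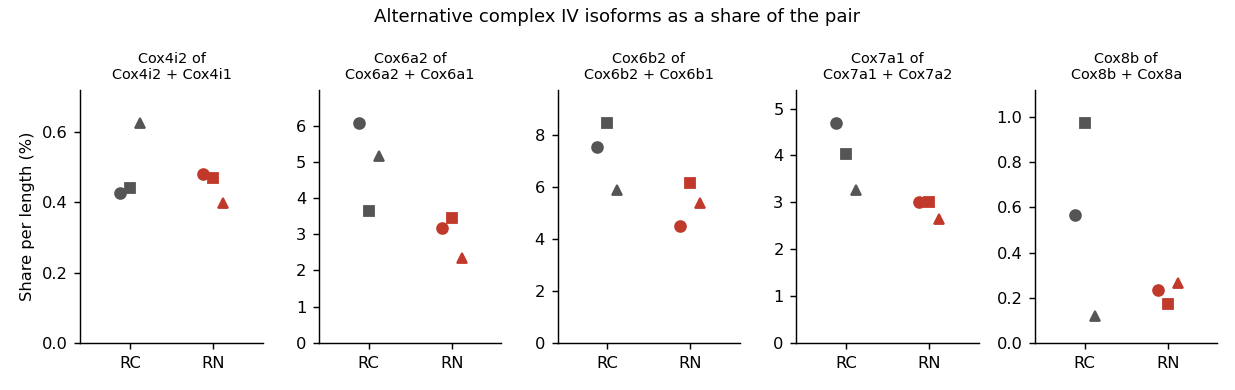
Share of each alternative complex IV isoform in the summed level per length of the isoform and its common form, in percent (vertical axes from 0; grey RC, red RN; circle, square and triangle for replicates 1, 2 and 3). The groups are apart for Cox6a2 and Cox7a1 and overlap for the other 3 pairs.

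Complex V, the ATP synthase, has a catalytic head, a central and a peripheral stalk and a membrane rotor. All 17 of its genes were below 0, with medians of -0.12 for the 5 head and central stalk genes, -0.06 for the 4 peripheral stalk genes, -0.14 for the 3 genes of rotor subunit c and -0.13 for the 5 small membrane subunits. The catalytic subunit Atp5b had 1279, 1501 and 1552 CPM in RC and 1290.2, 1384 and 1306 in RN (-0.12 ± 0.09, SE). Its partner in the head, Atp5a1, had 993, 1134 and 1069.5 CPM in RC and 1039, 1092 and 977 in RN (-0.04 ± 0.08). The groups overlapped for both.

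Atp5o, a subunit of the peripheral stalk, had 236, 264 and 265 CPM in RC and 235, 229.5 and 221 in RN, at -0.16 ± 0.08 (SE) with an adjusted p of 0.519 in edgeR's quasi-likelihood test. The groups did not overlap, but RC replicate 1 and RN replicate 1 were about 1 CPM apart. Atp5g1, which encodes rotor subunit c, had 134, 170.3 and 166 CPM in RC and 132, 144 and 135 in RN (-0.19 ± 0.11). Atp5d, of the central stalk, had 158, 203 and 205 CPM in RC and 168, 171 and 169 in RN (-0.16 ± 0.11). For Atp5g1 and Atp5d the groups overlapped through RC replicate 1 alone.

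Per kilobase of transcript, the genes spanned a wide range of levels. Atp5b was highest at 723 CPM per kb, followed by Cox4i1 at 613 and Cox8a at 562, while Cox8b was lowest at 2.28 and Cox4i2 next at 2.94. The median levels were 90.4 CPM per kb in complex I, 94.0 in complex II, 135 in complex III, 165 in complex IV and 218 in complex V. The complex V genes thus stood above the complex I genes by median, though their ranges overlapped. Many of these genes have processed pseudogenes, and how reads shared with such copies were divided was estimated by the authors' counting tool, so the levels of single genes are uncertain to that extent.

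**Figure D5:**
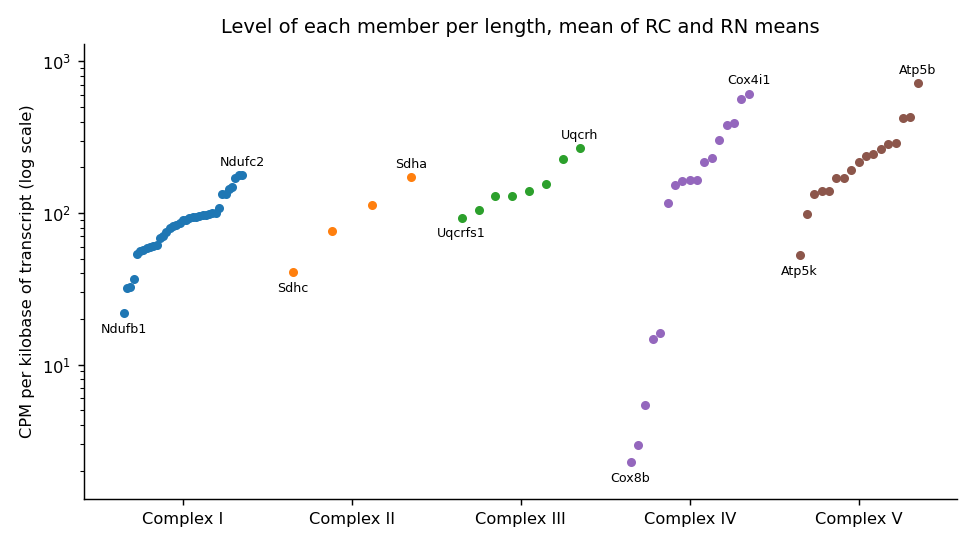
Level of each of the 83 genes as CPM per kilobase of transcript, the mean of the RC and RN means (logarithmic vertical axis), ordered within each complex, with the lowest and highest gene of each complex named. The alternative complex IV isoforms lie at or under 16.0 CPM per kb, below every gene of the other complexes.

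The 13 subunits encoded by the mitochondrial genome were all below 0 too, with a median log2 fold change of -0.22, and 6 had an unadjusted p under 0.05, against 6.33% of all tested genes lower at that p. None passed the adjusted threshold in edgeR's quasi-likelihood test or in DESeq2's Wald test; mt-Nd5, a complex I subunit, was at -0.28 ± 0.10 (SE) with an adjusted p of 0.291. Unlike the nuclear genes, RC replicate 1 was not low, since their mean centred log2 CPM was 0.06, -0.01 and 0.25 in RC and -0.03, -0.21 and -0.06 in RN. For 5 of the 13 all RN values lay below all RC values, against 8.12% of all tested genes. When the choroid plexus covariate was in the model, the median was -0.39. Of 6 related nuclear genes tested outside the symbol rule, 4 were below 0 and 2 above, with a median of -0.10 and a range from -0.22 to 0.04. Cytochrome c1 (Cyc1) was at -0.08 ± 0.10 and cytochrome c (Cycs) at 0.03 ± 0.12.

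Assembly factors and regulators had medians nearer 0, though single genes did not, and the difference from the subunit genes was not tested. Of 45 respiratory chain assembly factors, 27 were below 0 and 18 above, with a median of -0.05 and a range from -0.34 to 0.44, and 0 had an unadjusted p under 0.05 in edgeR's quasi-likelihood test or were called by DESeq2. Of 14 regulators of mitochondrial biogenesis, 7 were below and 7 above 0. Gabpb1, a subunit of the ETS factor GABP, had 13.2, 12.3 and 13.1 CPM in RC and 15.7, 18.4 and 15.7 in RN, at 0.37 ± 0.13 (SE) with an adjusted p of 0.309 in edgeR's quasi-likelihood test. Ppargc1b was at 0.45 ± 0.21 and Tfb1m at 0.21 ± 0.16, with adjusted p of 0.466 and 0.714 in the same test. For these 3 of the 14 regulators all RN values lay above all RC values, against 8.18% of all tested genes. The opposite was seen for 0, against 8.12%. Of the other regulators, Nrf1 was at -0.11 ± 0.13 and Ppargc1a, a coactivator of mitochondrial biogenesis, at 0.01 ± 0.12.

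Markers of other cell types also differed between the groups or mice, not all in the order of the subunit genes. All 10 astrocyte markers were below 0, with a median of -0.46. In edgeR's quasi-likelihood test 0 were called and 7 had an unadjusted p under 0.05, against 6.33% of all tested genes lower at that p. DESeq2's Wald test called 6, against 1.7% of all tested genes lower at an adjusted p under 0.05. The astrocyte markers had mean centred log2 CPM of 0.13, 0.35 and 0.22 in RC against -0.36, -0.14 and -0.19 in RN. All 10 general neuron markers were above 0, with a median of 0.14. Of the neuron markers, 0 had an unadjusted p under 0.05 in edgeR or were called by DESeq2. Their direction turned once the choroid plexus covariate was in the model, with a median of -0.03 and 6 of 10 below 0. The 12 choroid plexus markers were all below 0, with a median of -3.58, and none was at 0 in all mice. Their score, used as the covariate, was 1.71, 3.01 and -0.65 in RC and -1.54, -1.36 and -1.17 in RN. The groups did not overlap in it, so a fit that holds it separates group from covariate poorly. When edgeR's model also held a choroid plexus covariate, the median of the 82 subunit genes was -0.14, with 74 below 0, and that of complex IV was -0.27. Thalamic neuron markers (8 of 8 below 0, median -0.56) summed to between 815 and 1721 CPM in RC, highest in replicate 3, and to between 569 and 1124 in RN. Their median was -0.17 without RC replicate 3 and -1.39 with the choroid plexus covariate. Hypothalamic markers (9 of 9 tested above 0, median 1.37) summed to between 36.3 and 221 CPM in RC and to between 293 and 459.6 in RN. Red cell markers had mean centred log2 CPM of -0.65, 0.88 and 0.84 in RC and 0.10, 0.28 and -1.45 in RN. They too were lowest among RC mice in replicate 1. Oligodendrocyte markers were as well, with 10 of 10 below 0 and a median log2 fold change of -0.17. Their mean centred log2 CPM was -0.03, 0.30 and 0.02 in RC and 0.04, 0.05 and -0.38 in RN. Without RN replicate 3 their median was -0.04. Microglia and mural cell markers lay on both sides of 0. Ependymal markers (8 of 8 below 0, median -0.92) were also lowest among RC mice in replicate 1. Their mean centred log2 CPM in RC was 0.35, 0.51 and 0.44, above every RN mouse. Endothelial markers (9 of 10 below 0, median -0.31) were instead highest in RC replicate 1, at 0.31, 0.04 and 0.19 in RC. The subunit genes are short, with a median transcript length of 720.5 nt against 2844 nt over all tested genes. Among the 1064 tested genes with transcripts under 1000 nt, 660 were below 0, with a median of -0.05. Mean centred log2 CPM of those short genes was -0.02 in RC replicate 1, against -0.12 for the subunit genes. RC replicate 1 was also the lowest RC mouse in other housekeeping groups. RC replicates 1, 2 and 3 had mean centred values of -0.11, 0.07 and 0.08 for mitochondrial ribosomal proteins and of -0.09, 0.04 and 0.09 for outer membrane and carrier genes. The same mice had -0.09, 0.15 and 0.11 for glycolytic enzymes and -0.09, 0.09 and 0.03 for cytosolic ribosomal proteins. The parts of cell type content, dissected region and transcript length in the values of the subunit genes were not tested.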

How the data were processed

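Bulk RNA-seq libraries of whole thalamus tissue from 3 RC and 3 RN mice were analysed, grouped by their labels. The deposited values are whole-number read counts per gene, made by the authors and not normalized. The submitters' processing notes name fastp 0.18.0, FastQC, HISAT2 2.2.4, RSEM 1.2.19 and GRCm39; the annotation release and the use of strand are not given in the sources used here. RSEM estimates how reads shared between genes are divided, which bears on genes with pseudogene copies.

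The counts were analysed under R 4.3.3 with edgeR 4.0.16, run with the filter filterByExpr (minimum count 10) and TMM scaling, and the quasi-likelihood model held the group as its one term. Adjusted p refers to Benjamini-Hochberg adjustment across 14956 genes, with a threshold of 0.05. CPM used normalized library sizes. The prior count was 2 for log2 CPM and 0.125 for fitted fold changes. A score or centred value is the mean over a list of log2 CPM, each gene minus its mean over the 6 mice. A count of 0 allows 3 counts, or 0.161 to 0.181 CPM, for counting error only. Transcript lengths are those of the shortest principal transcript in GENCODE M21 (GRCm38), used for levels per length and for comparing genes by transcript length. The fit was checked on simulated counts.

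The symbol rule, the gene lists and the genes named were chosen with earlier results of these data known, so no list was given a test. Named genes were the 3 members of smallest p in each complex, a set of core subunits, the alternative complex IV isoforms, members with an unadjusted p under 0.05, and up to 3 genes of each other list. Genes whose groups did not overlap, the members above 0 and the motif matches were named after their values were seen. The values of 1 member are not reported here singly. The labels do not say that a replicate number marks a shared litter or day. Deviations from the group means correlated across genes at 0.173, 0.120 and 0.209 between the RC and RN mice of numbers 1, 2 and 3. Between mice of unlike numbers the correlations lay between -0.285 and 0.156. RC replicate 1 with RN replicate 2 (0.156) thus exceeded the pair of number 2. A fit with the pairing by number as a block is cited for counts of calls, for Cox6a2 and where a call differs. Nothing states whether mice of a group shared a cage or day, so p-values measure the spread between these mice.

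The alternatives were DESeq2 1.42.0 (the study's tool), edgeR with that tool's size factors, a fit of every gene with a count, a minimum of 10 counts in each mouse, calls without a fold threshold, the replicate number as a block, the choroid plexus score as a covariate, and each mouse left out in turn. The choroid plexus score was higher in every RC mouse than in every RN mouse, so values from the fit with that covariate separate the group difference poorly. Counting groups that do not overlap without RC replicate 1 was added after the data were seen.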

Additional observations from a re-analysis of the deposited data

How the results depend on the processing

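Over all genes, edgeR's quasi-likelihood test called 9 higher and 2 lower in RN at a fold of at least 2 and an adjusted p under 0.05. Called higher were 98 genes with DESeq2, 0 with the choroid plexus covariate, 36 with no filter on low counts, 17 with the replicate block and between 3 and 26 without each mouse; called lower were 81, 1, 7 and 5 in the same order, and between 0 and 18 without each mouse. Of the subunit genes, 0 were called in edgeR under any of these settings and 1, Cox6a2, with DESeq2. Members lower at an unadjusted p under 0.05 in edgeR's quasi-likelihood test numbered 5. Under the choroid plexus covariate they numbered 2, Cox6a2 and Cox7b, and Cox7b was not among the 5. Without each mouse they numbered between 2 and 35, 35 being without RC replicate 1. Members with RN wholly below RC numbered 7, and 64 without that mouse. It was the mouse most often lowest in these genes, so leaving it out raises both the 35 and the 64 by selection. Other causes of the differences between settings were not tested.

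Without each mouse the median log2 fold change lay between -0.18 and -0.04 in complex I, between -0.08 and 0.0076 in complex II, between -0.20 and -0.09 in III, between -0.25 and -0.09 in IV and between -0.20 and -0.06 in V. Of the 45 genes named by rule, 6 changed sign under some setting, each with a fold change near 0. The genes named later, Ndufab1, Ndufa6 and Uqcrc2, also did, reaching -0.087, -0.060 and -0.026 without 1 mouse. Sdhb (0.02) was at -0.055 with the choroid plexus covariate. Sdha (-0.0007) was at 0.0012 with DESeq2 and with its size factors and at 0.0030 with that covariate. Without each mouse, Ndufs1 ranged from -0.092 to 0.0034, Sdhd from -0.10 to 0.020, Sdhb from -0.046 to 0.068, Sdha from -0.0086 to 0.0077, Cox5a from -0.10 to 0.073 and Atp5a1 from -0.089 to 0.0067. The replicate block changed no call among the subunit genes, and Cox6a2 had an adjusted p of 0.171 with it in edgeR's quasi-likelihood test. With 3 mice per group and a biological coefficient of variation of 17.4%, 38 of the 82 subunit genes had a fold change smaller than its own SE.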

Other observations

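Neighbouring energy pathways gave further values. Of 18 TCA cycle enzymes, 16 were below 0, with a median log2 fold change of -0.06. Suclg2, a subunit of the GTP-forming succinate-CoA ligase, had 44.1, 49.7 and 40.5 CPM in RC and 27.1, 32.2 and 30.0 in RN, with no overlap, at -0.59 ± 0.11 (SE). Its adjusted p was 0.107 in edgeR's quasi-likelihood test and 0.00254 in DESeq2's Wald test. Of 17 glycolytic enzymes tested, 12 were below 0, with a median of -0.06. In edgeR's quasi-likelihood test 4 had an unadjusted p under 0.05, all lower in RN, against 6.33% of all tested genes lower at that p. The astrocyte marker Aldoc was among these 4.

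Aldoc, the brain aldolase and an astrocyte marker, had 1111, 1515 and 1448 CPM in RC and 722, 865 and 825 in RN, at -0.76 ± 0.13 (SE) with an adjusted p of 0.084 in edgeR's quasi-likelihood test, and of 0.0473 once replicate number was added to it as a block. Ldhb, the lactate dehydrogenase subunit of oxidative tissues, had 569, 745 and 735 CPM in RC and 507, 529 and 507 in RN (-0.41 ± 0.11). Among 78 mitochondrial ribosomal protein genes, 48 were below 0 with a median of -0.04, and among 81 cytosolic ones 55 were, with a median of -0.02. Neither direction was stable, since the mitochondrial median was 0.0036 without RC replicate 2 and 0.015 without RC replicate 3, with 38 and 35 below 0, and the cytosolic median was 0.016 without RC replicate 2, with 33 of 81 below 0.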
